A study of Mus musculus with 15 samples.

Results

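Mup1, Mup14, Mup18 and the pseudogene Mup-ps12 belong to the major urinary protein cluster of the mouse, and they are described here in RNA of whole liver. They were taken by symbol from a deposited gene table and make up 4 of its 20 rows whose symbol starts with Mup. They were chosen by measured values, namely those of CCl4 against oil, by which the authors limited the table, and those of CCl4 + EVNorm against CCl4, in which the 4 rows were already known to be higher. Both contrasts are therefore given below as a description with no test.

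Livers came from male wild-type Swiss Webster mice, an outbred stock, that were 4 to 5 weeks old at the start, with 3 mice in each of 5 groups. Untreated mice were littermates that received no injection. Oil mice received 30 μl corn oil per 25 g body weight intraperitoneally 3 times a week for 5 weeks. CCl4 mice received 4 μl CCl4, a toxin that injures hepatocytes as they metabolize it, in 26 μl corn oil (per 25 g) on that schedule. In the oil + EVNorm and CCl4 + EVNorm groups, 80 μg per 25 g of EVNorm, extracellular vesicles collected from cultures of AML12 mouse hepatocytes, was added 3 times a week over the last 2 weeks. All injected mice were sacrificed 36 h after their last oil or CCl4 injection, so that the injected groups share the corn oil and the untreated mice do not. The labels and methods give no count of separate vesicle preparations.

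Major urinary proteins are small lipocalins, barrel-shaped carriers of hydrophobic ligands, which hepatocytes secrete into the blood and the kidney passes into the urine. There they bind and slowly release volatile pheromones and also mark individual and sex identity. Their genes are among the most highly expressed of male mouse liver, and their transcription depends on pulses of growth hormone acting through the growth hormone receptor, JAK2 and STAT5. The genes and pseudogenes stand in a tandem array of closely related copies, and inbred strains and wild mice differ in which copies they express.

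In GENCODE M21, which uses GRCm38, 48 of 49 Mup genes and pseudogenes lie on chromosome 4 between 59956804 and 62150863, a span of 2.19 Mb. Mup1 (ENSMUSG00000078683) lies at 60498012 to 60501960, Mup14 (ENSMUSG00000073830) at 61300023 to 61304000 and Mup18 (ENSMUSG00000078674) at 61670177 to 61674136, all on the minus strand. Mup-ps12 (ENSMUSG00000073835), an unprocessed pseudogene whose exons sum to 549 bases, lies at 61452244 to 61454952 on the plus strand. The coding sequences of Mup1 and Mup14 were 99.07% identical, those of Mup1 and Mup18 98.89% and those of Mup14 and Mup18 98.7%. Mup-ps12 was 87.25% identical to Mup1, 86.99% to Mup14 and 87.62% to Mup18 over the aligned bases. To show how little separates the 4 rows, 72 aligned bases near the start of their coding or pseudogene exons are printed 5′ to 3′ from the GENCODE transcripts, with capitals at the 8 positions where the 4 are not all alike.
Mup1: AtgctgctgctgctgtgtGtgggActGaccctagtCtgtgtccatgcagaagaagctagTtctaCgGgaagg
Mup14: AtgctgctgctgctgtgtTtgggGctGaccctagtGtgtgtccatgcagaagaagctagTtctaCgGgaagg
Mup18: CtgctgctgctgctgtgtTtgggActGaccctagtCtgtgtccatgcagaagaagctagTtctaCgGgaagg
Mup-ps12: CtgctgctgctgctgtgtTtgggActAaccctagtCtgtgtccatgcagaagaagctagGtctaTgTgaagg
Only 4 of these 8 positions differ among the 3 protein-coding members. The window was chosen for display after the sequences were seen.

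Reads were 150 bases long at each end, and a stretch of that length often occurs in several copies. Of all 150-base stretches of the annotated transcripts, 52.5% of those of Mup1 were also present in another gene (14 genes in all), as were 65.7% for Mup14 (15 genes), 86.3% for Mup18 (15 genes) and 31.8% for Mup-ps12 (3 genes). In each of the 4 rows the other genes were Mup genes or Mup pseudogenes, and none lay outside the family. The count of a row thus depends on how reads with several matches were treated, which is not given in the sources used here, and each value below is that of the row and may include reads of a copy. Whether the outbred mice carry all copies of the reference genome was not tested.

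Upstream of the start, Mup14 and Mup18 could be compared in RefSeq's promoter windows of GRCm38.p6, whereas Mup1 had no entry. The symbol of Mup-ps12 had 9 entries, none of which held either of the motifs searched below. The 117 bases that both windows hold, chr4:61304090-61304206 for Mup14 and chr4:61674228-61674344 for Mup18 (minus strand), are printed because both rows have an entry and lay closer together within groups than the other pairs of members, and the capitals mark the 2 bases by which they differ.
Mup14: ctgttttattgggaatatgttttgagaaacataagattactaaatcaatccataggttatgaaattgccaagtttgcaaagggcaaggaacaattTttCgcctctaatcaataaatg
Mup18: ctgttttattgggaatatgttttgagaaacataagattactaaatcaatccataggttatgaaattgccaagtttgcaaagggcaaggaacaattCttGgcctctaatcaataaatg
The stretch lay 92 to 208 bases before the start that the promoter window of Mup14 uses and 134 to 250 bases before that of Mup18. These starts are not the GENCODE gene ends given above, so the distances do not measure a difference in spacing between the copies. The letters TTCNNNGAA, the consensus that STAT5 binds, occurred 0 times in each on both strands, and 3.4% of 32851 windows of the same length held them. The letters ATTGAT, the core that HNF6 binds, occurred 2 times in each, and 3.58% of windows held them at least once. Of the other 16 Mup rows 8 had a promoter entry, and in 7 of these 8 at least 1 entry held ATTGAT. Over the 117 bases the copies were 98.3% identical, and the window was chosen after the sequences were seen.

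Over the genes of the table the recovered reads numbered 6106856 to 11055679 per library, which is not the depth of a whole library, and the 20 Mup rows took 3.866% to 12.96% of them. Hepatocyte transcripts were abundant in every library, with the 4 of 14 listed hepatocyte markers that the table holds (Apoa1, Serpina1c, Cyp2e1 and Tdo2) summing to 226300 to 597300 normalized counts. Oil replicates 2 and 3 stood much closer together than other mice of a group. The chi-square per gene between this pair was 2.17, against 31.43 to 283.35 in the other 14 within-group pairs, and their median absolute log2 difference over the Mup rows was 0.082, against 0.316 to 1.467. They differed by more than sampling noise and were kept as 2 libraries, and the differences of the 4 rows that rest on oil mice are also given with the pair averaged as 1 library, an alternative chosen after the data were seen.

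Levels per length differed widely among the 4 rows. In normalized counts (reads divided by a size factor for each library) per kilobase of exon, Mup14 stood in oil liver at 21510 ± 6730 (SD, n = 3), Mup18 at 11360 ± 7047, Mup1 at 744.0 ± 166.5 and Mup-ps12 at 168.3 ± 36.16. Mup3, which had the highest count of the other Mup rows in every library, stood at 366300 ± 23080 per kilobase in the same mice. The 4 rows together made up 1.45% to 6.47% of the normalized counts of all 20 Mup rows. By mean normalized count Mup14 ranked 6 among the 20 Mup rows with oil, 4 with CCl4 and 3 with CCl4 + EVNorm, whereas Mup18 ranked 8 or 9, Mup1 9 or 10 and Mup-ps12 12 to 17 in the 5 groups.

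Mup14, which encodes a secreted major urinary protein, had normalized counts of 19110.5, 27065.6 and 7670.3 in untreated mice and of 18991.1, 35138.1 and 35062.9 in oil mice (replicates 1, 2 and 3 in this order throughout). With oil + EVNorm it measured 21250.6, 18085.2 and 23701.5, with CCl4 8575.8, 7253.8 and 8841.0, and with CCl4 + EVNorm 22294.8, 19591.4 and 16632.4. The 3 CCl4 mice lay below every oil, oil + EVNorm and CCl4 + EVNorm mouse. Untreated replicate 3 lay above CCl4 replicate 2 but below CCl4 replicates 1 and 3. By group means the order was oil (29730), oil + EVNorm (21010), CCl4 + EVNorm (19510), untreated (17950) and CCl4 (8224). Each group overlapped with its neighbour in this order, and the untreated mice were the most widely spread.

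Mup18, a close copy of Mup14, had normalized counts of 5649.4, 6048.7 and 2241.0 in untreated mice, of 3013.3, 13888.1 and 14787.0 with oil and of 8530.6, 6783.5 and 6683.5 with oil + EVNorm. With CCl4 it measured 766.9, 361.6 and 394.6, and with CCl4 + EVNorm 1722.7, 2183.0 and 2026.4. Oil replicate 1 stood far under the other oil mice, and the oil range spanned 4.91-fold. The CCl4 + EVNorm mice lay above all CCl4 mice and below all mice of the other 3 groups, so that Mup18 was partway between them.

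Mup1, also a protein-coding member, measured 980.1, 1307.6 and 1529.5 in untreated mice, 877.4, 1368.3 and 1290.0 with oil and 2564.6, 1969.8 and 683.7 with oil + EVNorm. Its counts were 387.1, 425.3 and 308.8 with CCl4 and 1095.0, 1137.4 and 685.5 with CCl4 + EVNorm. Here the CCl4 mice were lower than all 12 others. The other 4 groups overlapped with each other, and oil + EVNorm replicate 3 was the lowest of those 12 mice.

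Mup-ps12, annotated as a copy that makes no protein, had counts of 49.4, 63.5 and 27.3 in untreated mice, 69.7, 106.5 and 101.0 with oil and 83.8, 45.2 and 79.1 with oil + EVNorm. It had 8.2, 15.4 and 3.9 with CCl4 and 59.2, 34.5 and 40.0 with CCl4 + EVNorm. The CCl4 values rest on 10, 20 and 4 reads, so that counting error is large there. Again every CCl4 mouse was lower than all other mice, and CCl4 + EVNorm overlapped with untreated and with oil + EVNorm but not with oil.

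**Figure D1:**
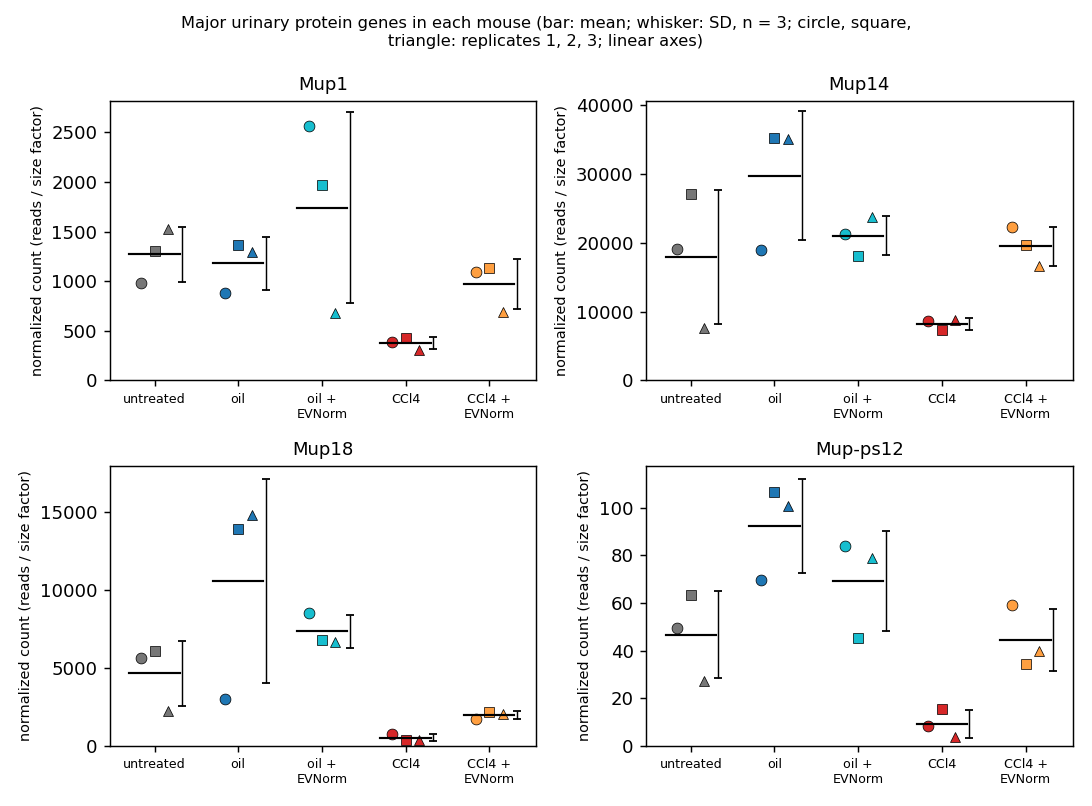
Normalized counts (reads divided by a size factor, linear axes from 0) of Mup1, Mup14, Mup18 and Mup-ps12 in each of 15 mice, with the mean as a bar and the SD as a whisker (n = 3). CCl4 mice are low in each panel, for example 361.6 to 766.9 for Mup18, and CCl4 + EVNorm mice are higher than they are in all 4 panels.

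Description of the contrasts that chose the rows comes first. From oil to CCl4 the mean of Mup1 went from 1179 ± 264 (SD, n = 3) to 373.7 ± 59.4, that of Mup14 from 29730 ± 9300 to 8224 ± 850, that of Mup18 from 10560 ± 6550 to 507.7 ± 225 and that of Mup-ps12 from 92.4 ± 19.9 to 9.167 ± 5.81. On the log2(normalized count + 1) scale, which understates the change of low rows, the differences were -1.64, -1.80, -4.15 and -3.34, with standard errors of 0.37, 0.34, 0.49 and 0.43. All 4 rows lay lower in CCl4 with no overlap, as did 50.7% of all genes of the table, and nothing is read from this since the table was limited on it. With oil replicates 2 and 3 averaged as 1 library the differences were -1.54, -1.66, -3.78 and -3.25. Because whole liver was sequenced, fewer hepatocytes and less of these transcripts per hepatocyte cannot be told apart.

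With EVNorm added to CCl4, the means were 972.6 ± 250 for Mup1, 19510 ± 2830 for Mup14, 1977 ± 234 for Mup18 and 44.57 ± 13.0 for Mup-ps12. The log2 differences from CCl4 were 1.35 (standard error 0.37), 1.24 (0.34), 2.04 (0.49) and 2.30 (0.43), which correspond to 2.56-, 2.36-, 4.11- and 4.91-fold. Groups did not overlap in all 4 rows, as was true in this direction for 8.0% of all genes, and this count carries no weight because the rows were picked with the contrast known. Just outside the choice stood Mup-ps15, with a log2 difference of 1.65 (standard error 0.50) and values of 11.4, 5.4 and 13.6 with CCl4 and 34.6, 46.2 and 20.4 with CCl4 + EVNorm. Mup15 differed by 3.77, but with a standard error of 1.44. Of the other 16 Mup rows, 3 lay higher with no overlap (Mup-ps15, Mup15 and Mup20), against 8.0% of all genes, and 0 passed in limma. Their CCl4 values also entered the choice of the table.

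Against oil, CCl4 + EVNorm liver differed by -0.29 (standard error 0.37) for Mup1, -0.56 (0.34) for Mup14, -2.11 (0.49) for Mup18 and -1.05 (0.43) for Mup-ps12 on the log2 scale. Mup1 and Mup14 overlapped with oil, whereas Mup18 and Mup-ps12 lay lower in all 3 mice, as did 48.0% of all genes. With the oil pair averaged the differences were -0.19, -0.41, -1.74 and -0.95. This contrast shares its groups with those that chose the rows and was not tested.

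**Figure D2:**
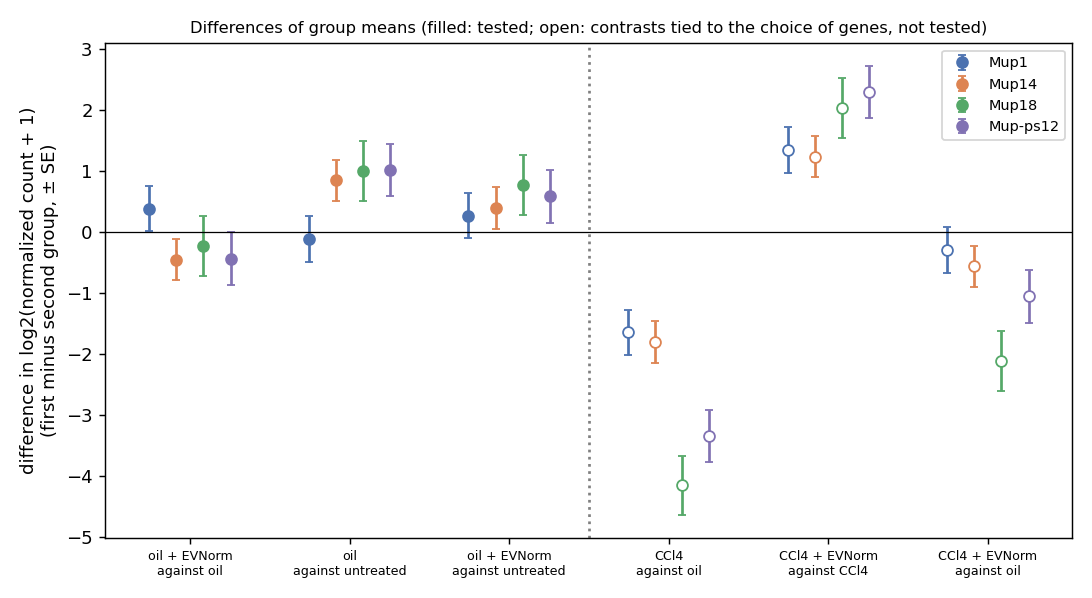
Differences between group means of log2(normalized count + 1), first minus second group, with the standard error of limma's fit, for the 4 rows in 6 contrasts. Filled points are the tested contrasts, in which values run from -0.45 to 1.02, and open points are the contrasts tied to the choice of the rows, which were not tested.

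The tested question was whether EVNorm moved these rows without CCl4. In oil + EVNorm against oil, 0 of 4 rows passed an adjusted p of 0.05 in limma, where 0.228% of all genes passed, and 0 of 4 had an unadjusted p under 0.05, against 21.7% of all genes. EdgeR and DESeq2 on recovered reads also called 0 of 4. Mup1 was at 1739 ± 961 against 1179 ± 264 (log2 difference 0.39, standard error 0.37, limma adjusted p = 0.486), and oil + EVNorm replicate 3 was low. The log2 differences of Mup14, Mup18 and Mup-ps12 were -0.45 (standard error 0.34), -0.23 (0.49) and -0.43 (0.43), with limma adjusted p-values of 0.384, 0.777 and 0.503. The groups overlapped in all 4 rows. These errors leave room for differences of a size that 3 mice cannot resolve. The oil mice also entered the choice of the table, and with oil replicates 2 and 3 averaged the difference of Mup18 changed sign to 0.15 (limma adjusted p = 0.871), while those of Mup1, Mup14 and Mup-ps12 were 0.48, -0.31 and -0.34.

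Oil against untreated compared mice given the injections and their vehicle with mice given neither. The oil mice also entered the choice of the table, and all 4 rows lay lower in CCl4 than in oil. That choice favours rows with high oil values, and its part in the differences below was not tested. Mup14 stood at 29730 ± 9300 against 17950 ± 9750, Mup18 at 10560 ± 6550 against 4646 ± 2090 and Mup-ps12 at 92.4 ± 19.9 against 46.73 ± 18.2, while Mup1 was at 1179 ± 264 against 1272 ± 276. The log2 differences were 0.85 (standard error 0.34), 1.0 (0.49), 1.02 (0.43) and -0.11 (0.37) in this order, with limma adjusted p-values of 0.285, 0.351, 0.303 and 0.909. So 0 of 4 rows passed in limma, where 0.911% of all genes did, while 2 of 4 had an unadjusted p under 0.05, as did 14.9% of all genes. With edgeR and with DESeq2 0 of 4 passed and 3 of 4 had an unadjusted p under 0.05. In Mup-ps12 the groups did not overlap, as in 6.75% of all genes in this direction. A single library decided the call of 2 rows, since Mup14 passed without untreated replicate 2 (log2 difference 1.24, limma adjusted p = 0.0317) and Mup18 without oil replicate 1 (1.75, adjusted p = 0.0276). With the oil pair averaged the 4 differences were 0.71, 0.63, 0.93 and -0.21 and 0 of 4 passed.

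No library of the contrast oil + EVNorm against untreated entered the contrasts that chose the rows. The log2 differences were 0.27 (standard error 0.37) for Mup1, 0.40 (0.34) for Mup14, 0.78 (0.49) for Mup18 and 0.59 (0.43) for Mup-ps12, with limma adjusted p-values of 0.583, 0.377, 0.229 and 0.294. Again 0 of 4 rows passed in limma, in edgeR and in DESeq2, and 0 of 4 had an unadjusted p under 0.05, whereas 31.0% of all genes passed in limma and 43.9% had such a p. The share that passed depends on the fit, because only 22 genes passed when the 6 libraries compared were fitted alone, against 1087. Mup18 lay higher in all 3 oil + EVNorm mice, as did 13.6% of all genes. Mup1 passed without oil + EVNorm replicate 3 (log2 difference 0.84, limma adjusted p = 0.0463). Among the other 16 Mup rows, Mup3 was lower (log2 difference -0.78, standard error 0.23, limma adjusted p = 0.022) and Mup9 higher (3.59, standard error 1.26, adjusted p = 0.0412). The untreated values of Mup9 were 11878.1, 90.4 and 4063.7, and its call was lost with edgeR and DESeq2 (adjusted p = 0.111 to 0.161) and without untreated replicate 2 or any oil + EVNorm mouse (adjusted p = 0.0789 to 0.146). It was also lost within limma without a mean-variance trend, with a robust prior and with only the groups compared (adjusted p = 0.0735, 0.101 and 0.139). That of Mup3 was lost without untreated replicate 1 or oil + EVNorm replicate 2 or 3 (adjusted p = 0.0559 to 0.0872) and with only the groups compared in the fit (adjusted p = 0.15).

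Within the family, the 4 rows and the bulk of Mup transcripts were set side by side. The 4 rows summed to 8056.1 to 9738.0 normalized counts with CCl4 and to 19384.3 to 25171.7 with CCl4 + EVNorm, which follows from their choice. The other 16 rows summed to 226022.4 to 370117.7 with CCl4 and to 281498.7 to 363586.9 with CCl4 + EVNorm, and these ranges overlapped. Mup3, whose means were 157300 ± 31200 and 157300 ± 19800 in these groups (log2 difference 0.01, standard error 0.23), held much of that sum, and Mup20, which encodes the male pheromone protein darcin, stood at 88530 with CCl4 and 141800 with CCl4 + EVNorm (0.67, standard error 0.29). With oil the 16 rows summed to 916318.1 to 1116193.8 and with oil + EVNorm to 556329.8 to 790827.6, and here the ranges did not overlap. Untreated mice, at 698078.8 to 1362144.4, overlapped with both. The oil mice also entered the choice of the table, and all 16 rows had lower estimates in CCl4 than in oil. That choice favours high oil values, and its part was not tested. In oil + EVNorm against oil Mup3 and Mup20 had log2 differences of -0.50 and -0.66, and neither passed the threshold (limma adjusted p = 0.223 and 0.218). With the oil pair averaged these differences were -0.53 and -0.55, and the sum over the 16 rows was 916318.1 and 1115787.6 in the oil libraries, still above the oil + EVNorm range.

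**Figure D3:**
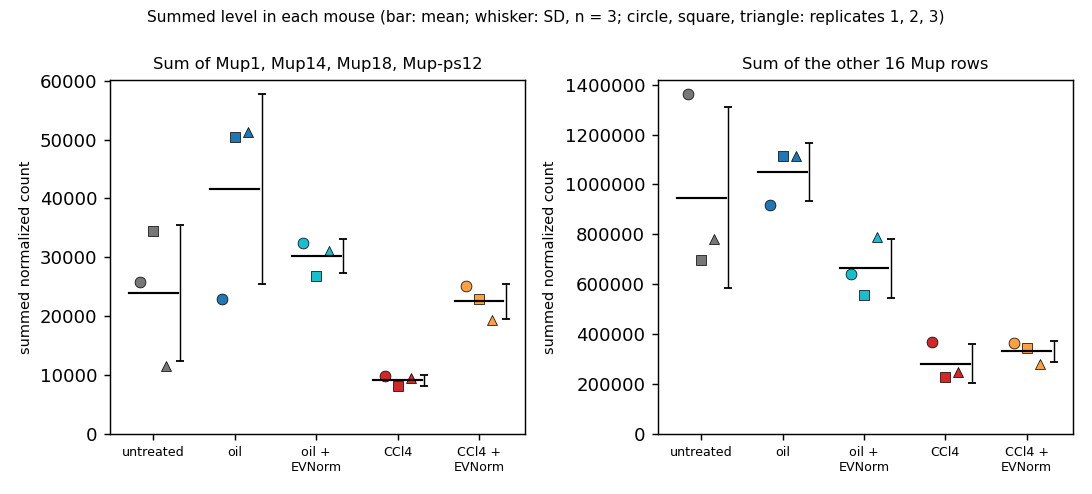
Summed normalized counts (axes from 0) of the 4 rows on the left and of the other 16 Mup rows on the right in each mouse, with mean and SD (n = 3). On the left CCl4 + EVNorm mice lie above CCl4 mice, while on the right the ranges of these groups overlap and those of oil and oil + EVNorm do not. The untreated range on the right overlaps with those of oil and of oil + EVNorm.

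Some of the other Mup rows spread more widely between mice of a group than the 4 rows. Mup17 measured 64039.7, 1483.2 and 55.5 in the 3 CCl4 mice, Mup15 31005.3, 20101.1 and 588.4 with oil + EVNorm and 532.0, 29714.5 and 1615.7 in untreated mice. Mup-ps4 was listed at 0.0 in untreated replicate 2 and at 101.0 and 66.1 in the other untreated mice. In the 4 rows the highest mouse of a group exceeded the lowest by 1.22- to 4.91-fold. Mup3, at 1.08- to 1.65-fold, and Mup20, at 1.27- to 2.39-fold, stayed within 4.91-fold too. The 4 rows were picked with their difference between CCl4 and CCl4 + EVNorm known. That choice favours rows with little spread, and its part was not tested. Whether the copies carried by each mouse play a part was not tested.

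**Figure D4:**
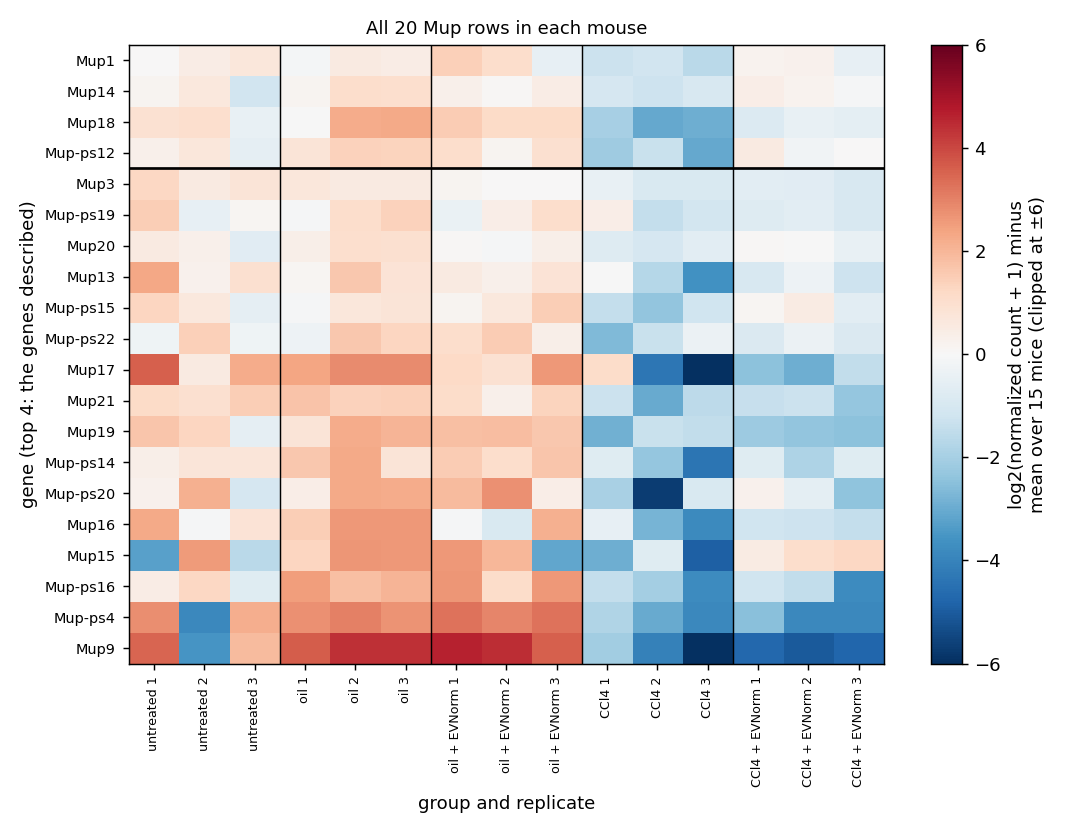
Heat map of log2(normalized count + 1) of all 20 Mup rows in 15 mice, each row centred on its mean and clipped at 6 log2 units, with the 4 rows described above the line. CCl4 columns are mostly blue. CCl4 + EVNorm columns are blue in many rows below the line, whereas Mup1, Mup14 and Mup-ps12 lie near their row means there. Mup17, Mup15, Mup-ps4 and Mup9 change colour between mice of a group.

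Proportions among the 4 rows also shifted with CCl4. Per 100 normalized counts of Mup14, Mup18 had 29.6, 22.3 and 29.2 in untreated mice, 15.9, 39.5 and 42.2 with oil and 40.1, 37.5 and 28.2 with oil + EVNorm. It had 8.94, 4.98 and 4.46 with CCl4 and 7.73, 11.1 and 12.2 with CCl4 + EVNorm. All 6 mice given CCl4 thus lay below all 9 others, with or without EVNorm, and the CCl4 and CCl4 + EVNorm ranges overlapped. Mup1 per 100 of Mup14 ranged from 3.49 to 5.86 with CCl4, from 4.12 to 5.81 with CCl4 + EVNorm and from 3.68 to 4.62 with oil, which overlapped. It varied more widely in the other groups, with 5.13, 4.83 and 19.9 in untreated mice and 12.1, 10.9 and 2.88 with oil + EVNorm. These ratios use the values that chose the rows and are given without a test.

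**Figure D5:**
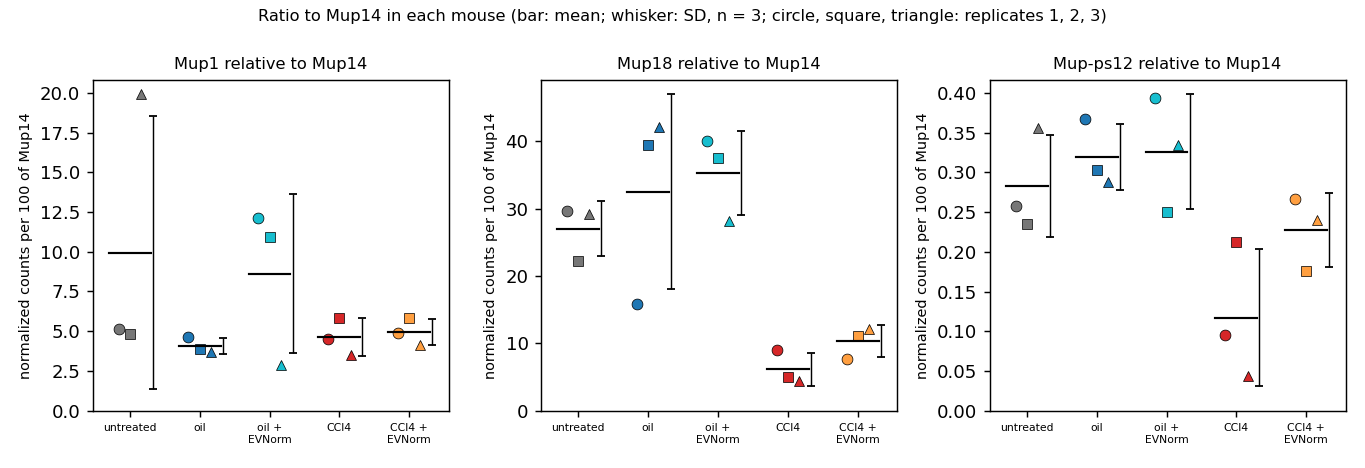
Normalized counts of Mup1, Mup18 and Mup-ps12 per 100 of Mup14 in each mouse (axes from 0), with mean and SD (n = 3). For Mup18 the 6 mice given CCl4 lie between 4.46 and 12.2 and the 9 others between 15.9 and 42.2.

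Across the 15 libraries, log2 values of Mup14 and Mup18 correlated at r = 0.86, those of Mup18 and Mup-ps12 at 0.89 and those of Mup1 and Mup14 at 0.57. After each group's mean was taken off, the values were 0.77, 0.40 and -0.06. These are descriptions over 15 libraries that share groups, size factors and, for near-identical copies, possibly reads. Of the non-member genes, those closest to the mean profile of the 4 rows were Ces4a, a carboxylesterase (r = 0.92), the pseudogene Adh6-ps1 (0.904), Zyg11b (0.892), Slc15a5 (0.888) and Cyp4a12a, a male-biased fatty acid hydroxylase (0.883). Gm43158, C2, Cdx4, Ppp4r3a and Mup20 followed at 0.88 to 0.861. Mup20 ranked 10 among all non-member genes, and the other Mup rows ranked 23 (Mup-ps14) to 730 (Mup-ps19).

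Other genes with male-biased expression in mouse liver were counted from a list of 18, of which 12 were in the table. With CCl4 + EVNorm against CCl4, 2 of 12 rose and 0 fell in limma, where 5.67% of all genes passed in either direction and 0.513% rose. Their median log2 difference was 0.39 against -0.06 over all genes. The CCl4 mice also entered the choice of the table, and all 12 genes had lower estimates in CCl4 than in oil (median log2 difference -1.46). Genes kept for low CCl4 values tend to stand higher in the next comparison, and the part of that choice was not tested. Cyp4a12a rose from 2591 to 4436 (log2 difference 0.78, standard error 0.16, limma adjusted p = 0.00954) and Cyp4a12b, its close copy, whose reads may be shared with it, from 49.33 to 105.3 (1.03, standard error 0.27, adjusted p = 0.0355). The differences of Nudt7, Ugt2b1, Selenbp2 and Cyp7b1, the most abundant others, were 0.25, 0.14, 0.30 and 0.72, and none of these passed. Leaving out CCl4 replicate 2 left 0 called, and leaving out CCl4 replicate 1 or 3 or CCl4 + EVNorm replicate 1 or 3 left 1.

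Of 35 female-biased liver genes 9 were in the table, and 2 fell and 0 rose in the same comparison, while 5.16% of all genes fell. Their median log2 difference was -1.28. The limit from the choice of the table holds here too. In CCl4 against oil 7 of the 9 had higher estimates and 2 lower ones. Cyp2c38 was among the 2 lower ones (log2 difference -1.95), so with EVNorm added it lay still further below oil. Cyp2b10, a cytochrome that is also induced by drugs through the receptor CAR, fell from 770.3 to 117.9 (log2 difference -2.55, standard error 0.40, limma adjusted p = 0.0013), and Cyp2c38 from 98.73 to 22.23 (-2.01, standard error 0.51, adjusted p = 0.0297). Abcd2 (-1.28) and Cyp4a10 (-1.87) did not pass. The count of 2 dropped to 1 without CCl4 replicate 1 or 2 or any of the CCl4 + EVNorm mice.

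Of 24 genes of the growth hormone receptor, JAK2 and STAT5 pathway 5 were in the table, and 0 of 5 passed in limma with CCl4 + EVNorm against CCl4, with 1 of 5 at an unadjusted p under 0.05, against 15.9% of all genes. EdgeR and DESeq2 also called 0 of 5. Ghr, the receptor, had a log2 difference of -0.16 (standard error 0.15), Lifr, a cytokine receptor subunit, 0.24 (0.21), Socs2, a STAT5 target that dampens the signal, 0.27 (0.69) and Stat5a 0.38 (0.17, limma adjusted p = 0.259). The fifth, Cish, differed by 0.67 (0.70). Stat5b and Jak2 were not analysed here. In oil against untreated 1 of the 5 genes passed in limma, against 0.911% of all genes. An unadjusted p under 0.05 was found in 2 of 5, against 14.9% of all genes. These 2 went in opposite directions, with Cish higher in oil and Lifr lower (log2 difference -0.63). Socs2, Stat5a and Ghr had log2 differences of 0.1, -0.06 and -0.09. The oil mice also entered the choice of the table, which favours genes whose oil values stand apart, so this contrast is not independent of that choice. Cish, a STAT5-induced inhibitor of cytokine signalling, rose from 89.2, 11.5 and 103.5 in untreated mice to 917.5, 727.1 and 694.9 with oil (log2 difference 3.98, standard error 0.70, limma adjusted p = 0.00795). That call was lost when only the 6 libraries compared were fitted (adjusted p = 0.0652), and with the oil pair averaged the difference was 4.04 (adjusted p = 0.0396).

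Liver transcription factors (9 of 28 in the table), other lipocalins (2 of 14) and secreted plasma proteins of hepatocytes (10 of 44) had 0 genes past the threshold in limma with CCl4 + EVNorm against CCl4. An unadjusted p under 0.05 was found for 1, 0 and 1 of them, against 15.9% of all genes. Median log2 differences were 0.07, 0.88 and -0.21. The transcription factor list had 1 gene past the threshold in edgeR with TMM factors and in DESeq2 with size factors of the table. Lcn2, an acute-phase lipocalin, differed by 1.73 with a standard error of 1.14, and the plasma proteins Serpina3k, Ahsg, Apoa1 and Apoa2 by 0.07, -0.29, 0.08 and -0.30. All 10 plasma proteins lay between -0.30 and 0.08. In oil against untreated, where the oil mice also entered the choice of the table, 1 of the 9 transcription factors passed, against 0.911% of all genes. This was Foxa1, a pioneer factor of liver genes. It rose from 146.2, 238.4 and 188.3 to 467.7, 415.2 and 407.4 (log2 difference 1.19, standard error 0.20, limma adjusted p = 0.00491), a call lost when only the 6 libraries compared were fitted (adjusted p = 0.0622), and it was 1.22 with the oil pair averaged.

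Some markers of other cells moved with CCl4 + EVNorm against CCl4, where 5.16% of all genes fell in limma and 0.513% rose. The 8 of 14 listed stellate cell and myofibroblast markers in the table summed to 19760 to 24420 normalized counts with CCl4 and 12140 to 14080 with CCl4 + EVNorm. Of these, 3 of 8 fell (Reln, Col3a1 and Lum) and 0 rose. Pdgfrb, Pdgfra, Col1a1, Col1a2 and Vim did not pass, with log2 differences of -0.12, -0.18, -0.39, -0.44 and -0.40. The 2 of 12 macrophage markers summed to 3488 to 4079 and 1412 to 2067, and Lyz2 fell, whereas Ccr2 did not pass (log2 difference -0.25). Sums of other lists also did not overlap, although none of their genes passed in limma. The 2 of 7 cholangiocyte markers summed to 380.9 to 454.5 with CCl4 and 549.9 to 641.2 with CCl4 + EVNorm, the 2 of 9 lymphocyte markers to 31.5 to 52.6 and 58.4 to 80.1, and the 1 of 8 endothelial markers to 1191 to 1236 and 982.1 to 1008. The 1 of 11 periportal hepatocyte markers lay at 21130 to 26070 and 19190 to 22320, which overlapped. The 4 hepatocyte markers summed to 246900 to 258000 with CCl4 and 226300 to 267400 with CCl4 + EVNorm, which overlapped, and 0 of 4 passed. None of the markers counted was at 0 in all 3 mice of a group. Among 7 pericentral hepatocyte markers 1 rose, Slc1a2 (log2 difference 1.69, limma adjusted p = 0.0013). Cyp2c29 went the other way and did not pass (-1.02, limma adjusted p = 0.0558). Glul, Cyp2e1, Oat, Axin2 and Gulo did not pass either, at 0.27, 0.03, 0.1, 0.07 and -0.23. The sum of the list was 79320 to 91660 with CCl4 and 71890 to 80240 with CCl4 + EVNorm, which overlapped. The part of these cells in the Mup values was not tested.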

How the data were processed

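RNA of whole liver from 15 mice, 3 in each of 5 groups, was depleted of ribosomal RNA and sequenced with a stranded kit. Per the study's methods and the submitters' processing notes, reads were aligned with STAR to GRCm38.p3, counted on GENCODE genes with featureCounts and tested with DESeq2. The deposited signal of a gene is its read count divided by a size factor per library by the authors, to 1 decimal, and 100% of values came back to whole reads within 0.05. The deposited table is limited to the 3511 genes called by the authors between CCl4 and oil. Its other columns, the authors' mean signal, log2 fold changes with standard errors, a score (Wald statistic) and p-values as deposited, hold their own comparison and were not used.

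Values were taken as log2(normalized count + 1), and 1 model of the 15 libraries was fitted with limma 3.58.1 in R 4.3.3 (trended empirical Bayes). Its two-sided p-values were adjusted by Benjamini and Hochberg's method over 3511 genes, with a threshold of 0.05. A calculation on simulated data preceded it. EdgeR 4.0.16 and DESeq2 1.42.0 were run on the recovered reads as alternatives, beside other pseudocounts (0.5 and 5), a filter on a mean count of 10, fits without a trend or with a robust prior, the groups compared alone, the replicate number as a block and each replicate left out. Labels name separate samples, and where mice are not stated to be independent, p-values measure the spread between these samples. Deviations from the group means of same-numbered CCl4 and CCl4 + EVNorm mice correlated weakly over genes (r = 0.23, 0.18 and 0.17). In oil against untreated the value reached 0.16. Differently numbered mice were not compared, so these values do not show a pairing, and none is stated.

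The members and gene lists were chosen with earlier results of these data known. Genes were named by rule: the 4 members, other Mup rows, the 10 rows closest in profile, called genes of the male-biased and growth hormone lists and up to 4 others of each list by mean count. Mup15, Mup17, Mup-ps4, Cish, Foxa1 and the called female-biased and marker genes were singled out after their values were seen. Sequences are from GENCODE M21 and RefSeq (GRCm38.p6).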

Additional observations from a re-analysis of the deposited data

Results flagged for a closer look

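In 3 rows, all 3 CCl4 + EVNorm mice lay above the mean count of CCl4 and all 3 oil + EVNorm mice below that of oil. This holds for arithmetic means, and on the log2 scale 1 of the 3 oil + EVNorm mice lay above the oil mean for Mup18. The log2 differences were 1.24 under CCl4 and -0.45 under oil for Mup14, 2.04 and -0.23 for Mup18, and 2.30 and -0.43 for Mup-ps12. The difference between these effects was not tested, because the members were chosen with the first of each pair known. Under oil the groups overlapped in each row and 0 of 4 passed in limma (with 0 of 4 at an unadjusted p under 0.05, and 0 of 4 called by edgeR or DESeq2), and the value of Mup18 changed sign with oil replicates 2 and 3 averaged (0.15).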

How the results depend on the processing

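Every one of the 4 rows kept the direction of its difference in CCl4 against oil, CCl4 + EVNorm against CCl4 and CCl4 + EVNorm against oil under all alternatives run, with each replicate left out giving a median of -2.82 to -2.38, 1.58 to 1.85 and -1.05 to -0.67. In the tested contrasts the count of members called ranged, with a replicate left out, from 0 to 0 for oil + EVNorm against oil, 0 to 1 for oil against untreated and 0 to 1 for oil + EVNorm against untreated, and it was 0 under every other alternative. Small differences changed sign, as their ranges with a replicate left out show, which were -0.98 to 0.17 (Mup18, oil + EVNorm against oil), -0.29 to 0.09 (Mup1, oil against untreated) and, for oil + EVNorm against untreated, -0.11 to 0.84 (Mup1) and -0.12 to 0.79 (Mup14). For oil + EVNorm against oil, Mup18 was at 0.13 and 0.17 without oil replicate 2 or 3 and 0.15 with these averaged. For oil against untreated, Mup1 was at 0.09 and 0.03 without oil replicate 1 or untreated replicate 3. For oil + EVNorm against untreated, Mup1 was at -0.11 without oil + EVNorm replicate 1 and Mup14 at -0.12 without untreated replicate 3.

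Counts over all genes moved more. For oil + EVNorm against oil, 8 genes became 2 with a pseudocount of 5, 5 with the groups compared alone, 0 and 1 with edgeR (TMM or the authors' size factors), 146 and 105 with DESeq2 (size factors of the table or the authors'), 0 with the oil pair averaged and 0 to 20 with a replicate left out. For oil against untreated, 32 became 17 with the groups alone, 103 and 90 with DESeq2, 19 with the oil pair averaged and 20 to 334 with a replicate left out. For oil + EVNorm against untreated, 1087 became 22 with the groups alone and 395 to 1369 with a replicate left out. For CCl4 + EVNorm against CCl4, 199 became 304 and 306 with DESeq2 and 94 to 151 with a replicate left out.

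In that comparison the 4 list genes called became 2 without a trend, 7 with the groups alone, 9 and 8 with DESeq2 and 1 to 3 with a replicate left out. The male-biased count of 2 became 1 without a trend, 5 and 4 with DESeq2 and 0 to 2 with a replicate left out. The female-biased count of 2 became 1 without a trend and with edgeR's TMM factors, 4 with DESeq2 and the authors' size factors and 1 to 2 with a replicate left out. The transcription factor count of 0 became 1 with the groups alone, edgeR's TMM factors and DESeq2 with size factors of the table, and was 0 to 1 with a replicate left out. With the replicate number as a block, 214 genes were called against 199 for CCl4 + EVNorm against CCl4 and 24 against 8 for oil + EVNorm against oil. Deviations of same-numbered mice had r = 0.06, -0.06 and 0.04 in the latter contrast. The block changed no call of a member. Size factors taken over the table, by TMM or DESeq2, shifted log2 differences of all genes by up to 0.25 (CCl4 + EVNorm against oil). Counting error limits Mup-ps12 with CCl4, which rests on 4 to 20 reads, and 3 mice limit each mean.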
